A study of Mus musculus with 41 samples.

Results

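Bivalent promoters, which carry the activating mark H3K4me3 together with the repressive mark H3K27me3, were followed from mouse embryonic stem cells into differentiated cells where they lacked lactylation of lysine 18 of histone H3 (H3K18la) in the stem cells. Members were chosen from the deposited peak lists of stem cells grown in serum (mESC-ser). A gene was a member where a window of 2000 bp on each side of any of its transcription start sites (TSS) overlapped an H3K4me3 peak and an H3K27me3 peak by at least 1 bp and no H3K18la peak. Calls are per gene, so a gene with several start sites can carry marks at different ones. In all, 1759 of 53843 annotated genes were members (3.27%), which is 48.5% of the 3629 bivalent genes. In mESC-ser the H3K4me3 and H3K27me3 peaks overlapped each other at 1667 members. Over all genes, 25.6% had H3K4me3, 17.6% H3K27me3 and 20.6% H3K18la in mESC-ser. The remaining 1870 bivalent genes carried H3K18la as well. Of the members, 1330 were protein-coding, 138 antisense transcripts, 82 lincRNAs and 27 miRNAs. Windows were shared among 799 members, and the 1759 members fell into 1335 groups without a shared window, so neighbouring members often drew on the same peak.

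The data are CUT&Tag profiles, in which a transposase tethered to an antibody tags the DNA beside a histone mark, of 41 samples in 24 combinations of cell type and mark. The stem cells were the E14 line in serum with LIF (mESC-ser) or in 2i with LIF (mESC-2i). Muscle was represented by primary myoblasts (MB), by myotubes differentiated from them (MT) and by whole gastrocnemius muscle (GAS) of female C57BL/6 mice (C57Bl6/J in the study's methods) 8 to 12 weeks old, which holds every cell type of the muscle. Macrophages were differentiated from bone marrow with M-CSF (BMDM), or sorted as CD45+ CD11b+ F4/80+ CD64+ cells from the muscle of mice 8 to 12 weeks old, 2 days after hind-limb ischemia (PIM). Adipocyte nuclei (ADIPO), captured on streptavidin beads, came from epididymal fat of AdipoCre-NuTRAP mice 10 weeks old, and what the Cre is expressed in was taken from its name. All samples are labelled as controls. Stem cells were profiled as whole cells and every other cell type as nuclei. MB and BMDM gave 1 H3K18la sample each and the other cell types 2. Biological replicates were merged before peaks were called, so each combination has 1 peak list, single lists have no replicate error, and tests were run over cell types.

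Bivalency is known as a state of developmental genes in stem cells. Trithorax-type complexes place H3K4me3 and Polycomb repressive complexes place H3K27me3, mostly over CpG-dense promoters, and a gene is thought to be held silent while it remains open to later activation. On differentiation a bivalent promoter can lose H3K27me3 and take up acetylation, or keep H3K27me3 in lineages where the gene stays off. H3K18la is an acyl mark derived from lactate and is found at active promoters and enhancers.

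The promoters below show the kind of DNA the members share and were chosen by rank, as the first gene of each pattern described later. Among the differentiated cell types, Trib2 led the members with H3K18la in muscle alone, Kcna3 those in macrophages alone, Adora1 those in adipocytes alone, and Rasa3 those in all 6 differentiated cell types. Lhx1 led those with H3K27me3 in all 7 lists of that mark and H3K18la in none of the 8. Each is the RefSeq sequence upstream of a start site in GRCm38 (mm10), 5′ to 3′ on the strand of the gene, without bases that lie in an annotated exon. Capitals mark CpG dinucleotides.
Trib2 (chr12:15816923-15817035, minus strand): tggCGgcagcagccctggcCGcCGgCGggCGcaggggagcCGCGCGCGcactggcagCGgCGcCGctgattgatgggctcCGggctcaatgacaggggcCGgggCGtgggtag
Kcna3 (chr3:107035912-107036161, plus strand): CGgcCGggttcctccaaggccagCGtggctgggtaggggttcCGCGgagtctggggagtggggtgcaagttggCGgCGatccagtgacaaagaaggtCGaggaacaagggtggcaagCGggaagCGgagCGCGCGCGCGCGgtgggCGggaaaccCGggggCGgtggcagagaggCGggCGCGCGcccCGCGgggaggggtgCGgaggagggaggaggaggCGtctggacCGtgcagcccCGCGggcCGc
Adora1 (chr1:134235458-134235707, minus strand): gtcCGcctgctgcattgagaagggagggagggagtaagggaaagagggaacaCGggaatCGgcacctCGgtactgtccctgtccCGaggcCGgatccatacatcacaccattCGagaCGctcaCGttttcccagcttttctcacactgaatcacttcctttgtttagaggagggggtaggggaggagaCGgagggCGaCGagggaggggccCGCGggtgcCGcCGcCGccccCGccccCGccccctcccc
Rasa3 (chr8:13677604-13677837, minus strand): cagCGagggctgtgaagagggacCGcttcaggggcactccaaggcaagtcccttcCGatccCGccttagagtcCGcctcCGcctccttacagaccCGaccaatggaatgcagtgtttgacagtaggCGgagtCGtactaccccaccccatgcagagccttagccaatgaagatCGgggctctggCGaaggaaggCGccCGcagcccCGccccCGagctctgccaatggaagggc
Lhx1 (chr11:84525536-84525784, minus strand): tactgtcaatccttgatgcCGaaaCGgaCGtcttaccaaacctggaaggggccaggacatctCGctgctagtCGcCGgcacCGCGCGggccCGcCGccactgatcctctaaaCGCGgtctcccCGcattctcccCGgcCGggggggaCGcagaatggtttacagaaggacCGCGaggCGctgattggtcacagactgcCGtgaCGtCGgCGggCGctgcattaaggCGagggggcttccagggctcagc
These stretches hold 15 CpG in 113 bases at Trib2, 31 in 250 at Kcna3, 19 in 250 at Adora1, 15 in 234 at Rasa3 and 26 in 249 at Lhx1. At Trib2, 2 of its 3 differentiated H3K18la peaks lay over the printed bases, and at Kcna3 both did. At Adora1 the single peak did, at Rasa3 4 of 6 did, and at Lhx1 all 7 H3K27me3 peaks did. A promoter sequence was found for 987 of the 1330 protein-coding members. Over the 250 bases upstream of the start, these members held a median of 18 CpG and all 26794 genes with a sequence a median of 6. The E-box CAGCTG, the core of sites bound by myogenic and other bHLH factors and the same on both strands, was present in 16.7% of members with H3K18la in muscle, in 16.3% of those with it in macrophages, in 13.3% of members without H3K18la in any differentiated cell type and in 12.8% of all genes. GAGGAA, the core of PU.1 and other ETS sites, read on both strands, was present in 23.0% of members with H3K18la in macrophages, in 20.3% of those with it in muscle, in 19.3% of those without H3K18la and in 23.3% of all genes. Neither word was in the printed stretches, apart from 2 matches to GAGGAA at Kcna3.

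Within 1000 bp centred on the start site with the highest ratio, the observed over expected CpG ratio of protein-coding members had a median of 0.782, with quartiles of 0.683 and 0.870. Its median was 0.734 at bivalent genes with H3K18la, 0.805 at genes with H3K4me3 and neither H3K27me3 nor H3K18la in mESC-ser (H3K4me3-only genes, 75.8% of which had H3K27ac there) and 0.632 over all protein-coding genes. A CpG-rich start (ratio of at least 0.6 and GC content of at least 50%) was present at 86.4% of members, against 51.3% of all protein-coding genes. Members that carried H3K18la in a differentiated cell type had a median ratio of 0.798, and those that did not had 0.755. These are descriptions over genes that share peaks and were not tested.

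In mESC-ser, the marks that chose the members are a description. Their H3K27me3 peaks had a median width of 5483 bp and lay at the median percentile 88.2 of total signal (the coverage summed over a peak) within that list, and their H3K4me3 peaks had a median width of 2901 bp and lay at percentile 34.9. At bivalent genes with H3K18la these percentiles were 78.8 for H3K27me3 and 60.9 for H3K4me3. The nearest H3K18la peak was a median of 61534 bp from a member's window, and 73 of 1759 members had one within 2000 bp. Just inside this limit lay Wt1, a zinc finger regulator of the urogenital tract and mesothelium, at 74 bp from an H3K18la peak. Stard10 was next at 93 bp and Gm20661 at 185 bp. Just outside were Zbtb42 with 31 bp of overlap, Lhx6 with 39 bp and Celf4 with 40 bp. For H3K4me3, the members nearest the limit were 1700003F12Rik (93 bp of overlap), Sebox (119 bp) and Gm13288 (237 bp), and the non-members Gm10160, Cnga1 and Mzb1 missed a peak by 7, 15 and 26 bp. For H3K27me3, Mto1 (61 bp), N4bp2 (75 bp) and Zpr1 (99 bp) were inside, and Clip1, Ptgr2 and Znrf3 missed a peak by 18, 21 and 23 bp.

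H3K27ac, an acetyl mark of active promoters and enhancers that the rule did not use, was present in mESC-ser at 242 members (13.8%, Wilson 95% interval 12.2 to 15.4), against 55.5% of bivalent genes with H3K18la and 21.8% of all genes. Over protein-coding genes it was 14.9% of members and 40.2% of all. Intervals of this kind cover counting error only. In mESC-2i, 98.6% of members carried H3K4me3 (33.2% of all genes) and 73.1% carried H3K27me3 (16.4% of all genes). H3K18la was present in 2i medium at 367 members (20.9%, all genes 24.3%), among them 171 that kept H3K27me3 there. Over protein-coding genes the share was 20.6% of members and 37.8% of all. The share of members with H3K27me3 in mESC-2i was 46.6% where H3K18la was present and 80.0% where it was not. Sox1, a neural plate factor, and Eomes, a regulator of mesendoderm, carried H3K18la in mESC-2i and in no differentiated list.

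Developmental regulators were frequent among the members, as they were among the bivalent genes with H3K18la. Of 21755 protein-coding genes, 6.11% were members, and this background stands beside every class that follows. Classes were defined by symbol, their selection and that of the lists was made with earlier results known, and they were not tested. Other homeobox factors, which pattern the body axis and the nervous system, gave 45 of 158 (28.5%, interval 22.0 to 36.0). The Fox, Sox, Gata and T-box families gave 32 of 86 (37.2%), among them Foxc1, Foxc2, Foxf1, Gata4 and Sox17, and bHLH factors gave 25 of 73 (34.2%), among them Neurog2, Olig2, Hand2 and Twist1. Zinc finger and nuclear receptor factors gave 25 of 107 (23.4%). Together with the 39 Hox cluster genes described below, these transcription factor classes held 128 members of 463 genes (27.6%). They also held 92 bivalent genes with H3K18la (19.9%, against 6.68% of all protein-coding genes).

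Signalling genes were the other large group. Wnt pathway genes gave 23 of 60 (38.3%, interval 27.1 to 51.0), with the ligands Wnt3, Wnt3a, Wnt5a and Wnt7a, the receptors Fzd1, Fzd3, Fzd4 and Fzd6 and the antagonists Dkk1, Dkk2, Frzb and Wif1. The TGF-beta and BMP pathway gave 13 of 66 (19.7%), from the ligand Bmp2 to the antagonists Nog, Grem1 and Fst. FGF, hedgehog and Notch genes gave 14 of 58 (24.1%), with Shh and Ihh among the ligands and Smo as their transducer. Other receptor tyrosine kinases and ligands gave 22 of 70 (31.4%), among them Kdr, Met, Ret and Igf2. Axon guidance genes gave 24 of 94 (25.5%), cadherins and protocadherins 25 of 104 (24.0%), ion channels 34 of 160 (21.2%) and neurotransmitter and neuropeptide receptors 33 of 167 (19.8%). Collagens and other matrix genes gave 25 of 167 (15.0%). Bivalent genes with H3K18la were the more frequent in some of these classes, at 36.2% of FGF, hedgehog and Notch genes, 28.7% of axon guidance genes, 22.7% of TGF-beta and BMP genes and 16.8% of matrix genes. Over the Wnt, TGF-beta, FGF and receptor tyrosine kinase classes together, 28.3% of genes were members and 25.6% were bivalent with H3K18la. Solute carriers, with 23 of 381 (6.04%), were at the background.

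Hox cluster genes, a textbook set of Polycomb targets, gave 1 member of 39, Hoxc13. All 39 carried H3K27me3 in mESC-ser, but 2 had an H3K4me3 peak in the serum list, against 36 in the mESC-2i list. The serum H3K4me3 list held 11002 peaks and the 2i list 19362. In total 5270 genes had H3K27me3 and neither H3K4me3 nor H3K18la in mESC-ser, and 1685 of these had an H3K4me3 peak in mESC-2i. The medium and the number of peaks called cannot be told apart here.

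**Figure D1:**
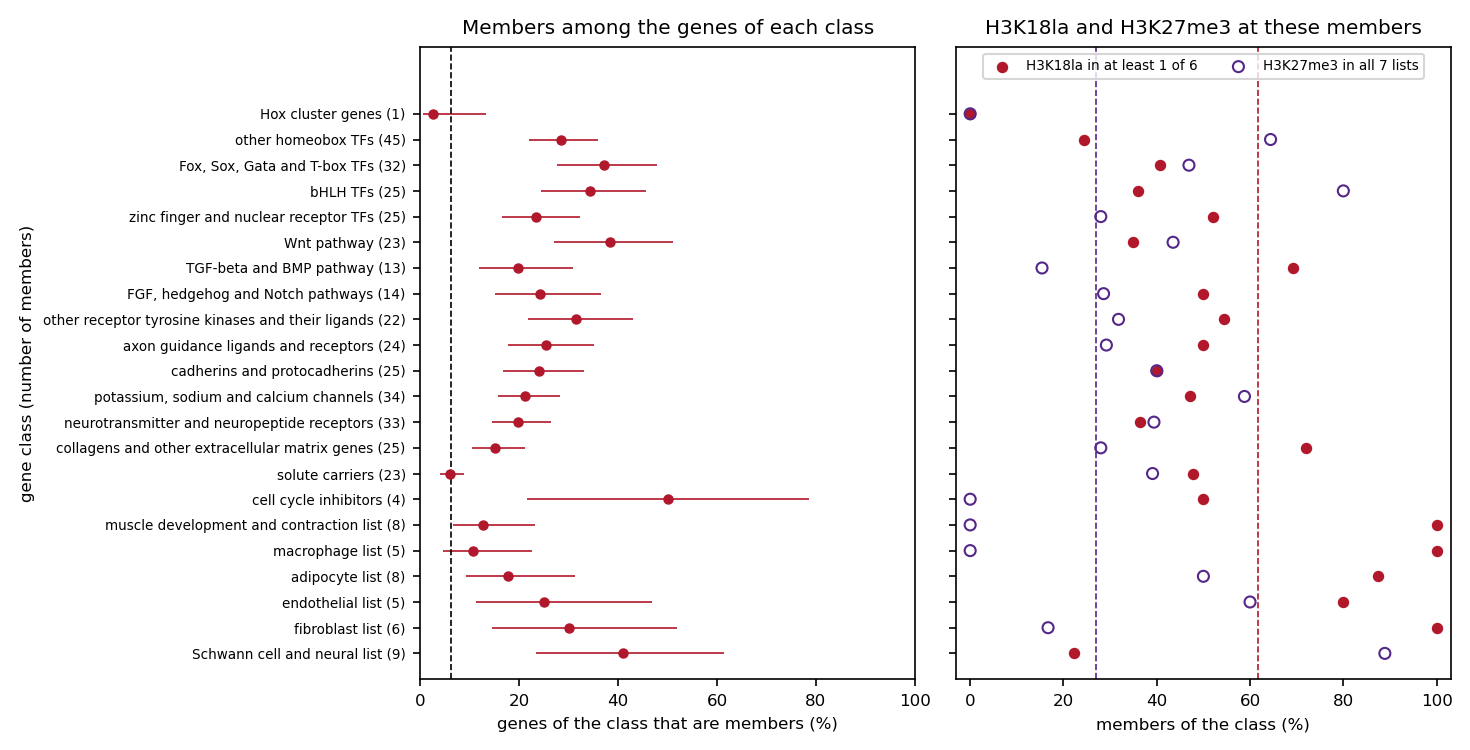
Gene classes among the members. Left, the percent of the genes of each class that are members (points, with Wilson 95% intervals, dashed line at 6.11% for all protein-coding genes); right, the percent of the members of each class with H3K18la in at least 1 of the 6 differentiated cell types (filled, dashed line 61.6%) and with H3K27me3 in all 7 lists (open, dashed line at the share of all protein-coding members). Most transcription factor and signalling classes lie to the right of the background on the left, and homeobox, bHLH and neural genes show little H3K18la and persistent H3K27me3 on the right.

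Outside the stem cells, 1034 of 1759 members (58.8%) carried H3K18la in at least 1 of the 6 differentiated cell types, against 42.9% of all genes. The count was 392 with H3K18la lists of equal extent, and 248 of 837 members on the 5000 strongest peaks per list. Among protein-coding genes it was 819 of 1330 members (61.6%) against 63.5% of all. H3K18la was present in exactly 1 differentiated cell type at 295 members, in 2 at 238, in 3 at 203, in 4 at 136, in 5 at 115 and in all 6 at 47. All 6 had H3K18la at 2.67% of members and 2.11% of all genes. Shares of all genes with H3K18la in exactly 1 to 5 were not computed. In GAS, 656 members carried it (37.3%, all genes 23.3%), in MT 583 (33.1%, all genes 23.0%) and in MB 224 (12.7%, all genes 7.61%). In PIM there were 526 (29.9%, all genes 22.8%), in BMDM 232 (13.2%, all genes 11.1%) and in ADIPO 560 (31.8%, all genes 25.7%). Over protein-coding genes the direction turned in 3 of the 6 cell types. Protein-coding members were below all protein-coding genes in PIM (31.8% against 37.8%), BMDM (14.8% against 18.5%) and ADIPO (33.5% against 44.7%), and above them in GAS (39.4% against 36.1%), MB (14.0% against 11.1%) and MT (35.1% against 34.8%). The lists differ in extent, from 22.6 Mb of H3K18la peaks in BMDM and 40.5 Mb in MB to 123 Mb in GAS and 137 Mb in MT, and the members' shares were lowest in the 2 lists of least extent. With each list cut to its strongest peaks at the extent of BMDM, the peaks kept were 19571 in BMDM, 4856 in MB, 4374 in PIM, 2634 in ADIPO, 1645 in GAS and 1490 in MT, so this order cannot be read apart from peak number. The members' share was then 13.2% in BMDM, 6.20% in PIM, 5.51% in MB, 4.55% in ADIPO, 3.81% in GAS and 1.99% in MT, and the share of all genes 11.1%, 4.42%, 3.12%, 3.23%, 2.41% and 1.88%. In bulk samples, fewer cells with a mark and less of the mark per cell cannot be told apart.

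By lineage, 843 members carried H3K18la in a muscle sample, 533 in macrophages and 560 in adipocytes. In muscle alone it was found at 262 members (14.9%), in adipocytes alone at 89 (5.06%) and in macrophages alone at 64 (3.64%). Over protein-coding genes, muscle H3K18la was present at 50.5% of members and 46.9% of all, macrophage H3K18la at 32.2% and 39.2%, and adipocyte H3K18la at 33.5% and 44.7%. The pattern of muscle alone was found at 15.6% of protein-coding members and 8.32% of all, adipocytes alone at 5.11% and 7.74%, and macrophages alone at 3.98% and 4.18%. Each of these lineage patterns was present at a similar share of the bivalent genes with H3K18la in stem cells (14.1%, 3.90% and 3.32%). The groups were further apart at the extremes, with 283 members (16.1%) in all 3 lineages against 29.3% of bivalent genes with H3K18la, and 725 (41.2%) in none against 26.0%. Muscle has 3 lists, macrophages 2 and adipocytes 1, which sets part of these counts.

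**Figure D2:**
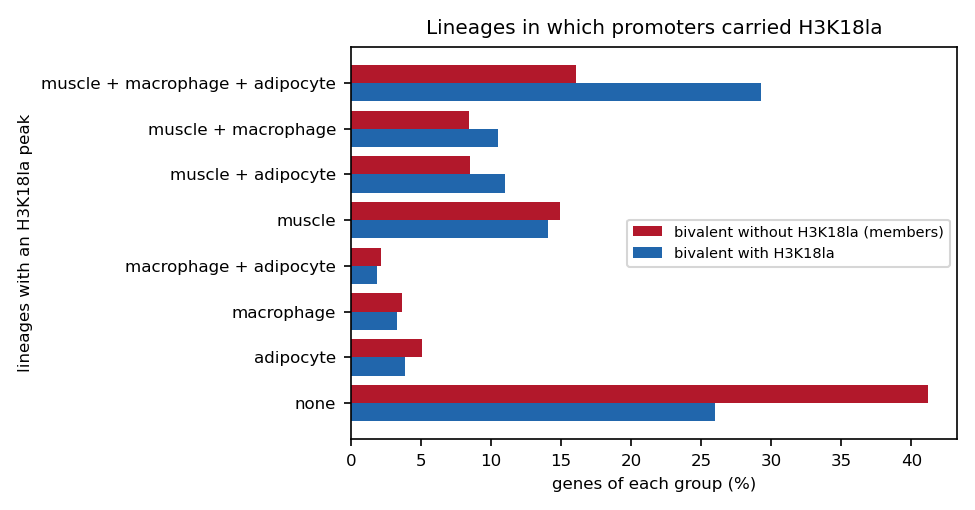
Lineages with an H3K18la peak at a promoter, as the percent of 1759 members (red) and of 1870 bivalent genes with H3K18la in mESC-ser (blue). Muscle is GAS, MB or MT, macrophage BMDM or PIM, and adipocyte ADIPO. The bars are close in the single-lineage rows and separate for all 3 lineages and for none.

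Whether members took up H3K18la by lineage was tested on the Jaccard index, the members with H3K18la in both of a pair of cell types over those with it in either. The index was highest for GAS and MT (0.484, 404 members), GAS and ADIPO (0.456) and GAS and PIM (0.438), and was 0.422 for BMDM and PIM. It averaged 0.367 within lineages and 0.312 between them. The difference of 0.0553 did not pass an exact two-sided permutation test over the assignment of cell types to lineages (p = 0.450, adjusted p = 0.450 over 3 tests by Benjamini-Hochberg, smallest possible p 0.0167). Without BMDM, the list of least extent, it was -0.00651, without MT 0.0215, without MB 0.0947 and without GAS 0.0993. On the 5000 strongest peaks per list it was 0.0877 (permutation p = 0.0333, adjusted p = 0.05), among members bivalent in both media 0.0833, and with lists of equal extent 0.0808. At all other genes the difference was 0.0284.

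The muscle list held 8 members of 63 genes, and all 8 carried H3K18la in GAS. Of the 63 genes, 56 (88.9%) carried H3K18la in some differentiated cell type, so a high share is usual for this list. In MT 7 of the 8 carried it, in MB 2, in PIM 1, in ADIPO 3 and in BMDM 0. Lbx1, the homeobox factor of migrating limb muscle precursors, carried H3K18la in GAS (percentile 80.7 of total signal in that list) and in MT (percentile 10.2) and not in the other 4 cell types. Its H3K27me3 peak was called in both stem cell media, BMDM and PIM and in none of the 3 muscle lists. Eya4, a transcriptional coactivator with phosphatase activity, carried H3K18la in GAS, MB and MT and H3K27me3 in BMDM and PIM. In MB and MT it lay over another start site than the stem cell marks. The GAS peak (chr10:23345435-23351261) lay over the serum H3K27me3 peak (chr10:23345435-23351316), and those of MB and MT (chr10:23182927-23186242 in MB) lay over a start site inside the gene. Acta1, the skeletal alpha-actin gene, carried H3K18la in GAS, MT and ADIPO, with H3K27me3 in GAS, MB, BMDM and PIM and not in MT.

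Of the protein-coding members, 22 (1.65%, all protein-coding genes 0.712%) carried H3K18la in all 3 muscle samples and in neither macrophages nor adipocytes. The first by signal rank were Trib2, a Tribbles pseudokinase, Lmo7, an actin-associated LIM protein, Rgs12, a regulator of G protein signalling, Eya4, the protease gene Prss23 and Synm, which encodes the muscle intermediate filament protein synemin. Marks were at separate start sites at some of these. At Lmo7 the GAS H3K18la peak (chr14:101839737-101844017) was away from the serum H3K27me3 peak (chr14:101729103-101732165), and at Rgs12 the serum H3K4me3 peak (chr5:34948469-34951042) was away from the serum H3K27me3 peak (chr5:34993594-34999235). Lmo7 and Rgs12 carried H3K18la in mESC-2i too, at percentiles 14.6 and 6.99. Trib2 peaks were at percentile 97.9 in GAS, 82.5 in MB and 88.6 in MT, and the GAS peak covered 10867 bp (chr12:15808853-15819719). Trib2 also carried H3K18la in mESC-2i (percentile 14.4), and had H3K27me3 peaks in mESC-ser, BMDM and PIM only. At Synm the H3K18la peaks were at percentile 97.0 in GAS, 44.3 in MB and 93.1 in MT, and H3K27me3 was called in MB and MT too, over another start site (in MB, H3K18la at chr7:67740246-67742756 and H3K27me3 at chr7:67756691-67759092). Among T-box members, Tbx15, which is known in glycolytic fibres and fat, carried H3K18la in GAS and MT, Tbx18 in MT and Tbx2 in GAS, while Eomes, T and Tbx21 carried it in no differentiated list.

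Whole muscle also holds endothelium and fibroblasts. Among the markers used to check the labels, all 5 endothelial genes and all 4 fibroblast genes carried H3K18la in GAS. The endothelial list held 5 members of 20 genes, of which 18 carried H3K18la in some differentiated cell type. Of these Kdr, the VEGF receptor of endothelium, Flt1, its decoy relative, the ETS factor Erg, and Sox17 carried H3K18la in GAS and in no other differentiated cell type. Prox1 of lymphatic endothelium carried it in none. Kdr ranked at percentile 37.3 in GAS and Sox17 at 44.7, and H3K27me3 was called in GAS at all 4. The part of such cells in the other GAS counts was not tested. In the fibroblast list 19 of 20 genes carried H3K18la in some differentiated cell type. Of its 6 members, 3 carried H3K18la in GAS, 4 in MT, 4 in ADIPO and 0 in MB, BMDM and PIM. Prrx1, a homeobox factor of limb mesenchyme, carried it in GAS (percentile 94.8), MT (79.3) and ADIPO (93.5), with H3K27me3 in BMDM, PIM and both stem cell media.

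In macrophages, 16 protein-coding members (1.20%, all protein-coding genes 1.38%) carried H3K18la in BMDM and PIM and nowhere else among the 6. Kcna3, a voltage-gated potassium channel of leukocytes, was first, with peaks at percentile 96.7 in BMDM (chr3:107034331-107038776) and 78.9 in PIM, and H3K27me3 in GAS, MT and the stem cells. Cyfip2, a subunit of the WAVE actin regulator, had peaks at 74.5 and 79.4, and Lmo2, a haematopoietic LIM protein, at 65.5 and 68.6. At Lmo2 the myotube list had an H3K27me3 peak of 51171 bp over the gene and the macrophage lists had none. Kcnq3 and Mctp1 had H3K27me3 in all 7 lists, but at another start site. At Kcnq3 the BMDM H3K18la peak was chr15:66103079-66104110 and the H3K27me3 peak chr15:66280093-66290202, and at Mctp1 they were chr13:76579217-76579890 and chr13:76380890-76388345. Tmem206, a chloride channel gene, had H3K27me3 in the stem cells alone. Runx3, a Runt factor of leukocytes, carried H3K18la in BMDM (percentile 65.4) and PIM (32.3) in short peaks. The BMDM peak (chr4:135152932-135154398) lay inside the H3K27me3 peak of that list (chr4:135132975-135156905), and the PIM peak (chr4:135153117-135154439) lay outside that of PIM (chr4:135145167-135152235).

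The macrophage list held 5 members of 47 genes, and all 5 carried H3K18la in PIM and ADIPO. H3K18la was found at some differentiated cell type for all 47 genes of the list. Ikzf1, the lymphoid and myeloid factor Ikaros, carried H3K18la in PIM and ADIPO, with H3K27me3 in GAS, MB and MT and not in BMDM or PIM. Cd14, the lipopolysaccharide co-receptor, carried H3K18la in MB, MT, BMDM, PIM and ADIPO. Maf carried it in GAS, MT, PIM and ADIPO, and Cebpa in these and BMDM. At both genes H3K27me3 was called in the stem cells and in no differentiated list. Among the macrophage markers, Csf1r and Spi1 carried H3K18la in GAS and MT as well and Spi1 in ADIPO, while Adgre1 was restricted to BMDM and PIM. The fat nuclei had been captured on streptavidin beads, and the part of macrophages in the GAS, MT and ADIPO peaks was not tested.

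In adipocytes, 68 protein-coding members (5.11%, all protein-coding genes 7.74%) carried H3K18la in ADIPO and in no other differentiated cell type. Adora1, the adenosine receptor that restrains lipolysis, had an H3K18la peak of 13943 bp (chr1:134226200-134240142) at percentile 98.9. Cachd1 was at 98.6, Ebf2, a factor of brown and beige adipocytes, at 97.1, Ptger3, a prostaglandin receptor, at 93.6, Gata6 at 92.6 and Nat8l, the enzyme that makes N-acetylaspartate, at 90.5. Of these 6 genes, 5 had H3K27me3 in all 7 lists. At Cachd1 it was called in mESC-ser, BMDM and PIM, at a start site (chr4:100773275-100782069 in mESC-ser) away from the ADIPO H3K18la peak (chr4:100984952-100998243). No H3K27me3 list of ADIPO was analysed here, so whether the other 5 had the mark in adipocytes is not known.

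Of the 80 developmental regulators listed, 38 were members, and 21 of these (55.3%) carried H3K18la in a differentiated cell type, against 45 of all 80 (56.2%) and 63.5% of all protein-coding genes. ADIPO held it at 13 of the 38, muscle at 12 and macrophages at 7. Over all protein-coding members these shares were 33.5%, 50.5% and 32.2%, and over all protein-coding genes 44.7%, 46.9% and 39.2%. At 8 of the 38 H3K18la was found in ADIPO and no other differentiated cell type (protein-coding members 5.11%, all protein-coding genes 7.74%). Among them were Twist1, Ebf2, Wt1, Wnt5a and Gata6, the last with H3K18la in mESC-2i too (percentile 10.7), and 6 of the 8 had H3K27me3 in all 7 lists. Wt1 was at percentile 85.2 of the ADIPO list, Wnt5a at 71.8 and Twist1 at 47.0. The adipocyte list held 8 members of 45 genes, of which 6 carried H3K18la in ADIPO, and 42 of the 45 carried it in some differentiated cell type. Pparg, the master regulator of fat cells, carried it in GAS, MB, PIM and ADIPO over different start sites. The ADIPO peak (chr6:115420852-115427895, percentile 91.9) and the MB peak lay inside the gene. The peaks of GAS (percentile 20.4) and PIM (67.4) lay at its first start, under the serum H3K27me3 peak (chr6:115359035-115363704). Sfrp5, a secreted Wnt inhibitor of fat, carried H3K18la in none of the 8 lists.

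H3K18la was present in all 6 differentiated cell types at 47 members (2.67%, all genes 2.11%), of which 40 were among the 1330 protein-coding members (all protein-coding genes 3.69%). Rasa3, a Ras GTPase-activating protein, ranked first. Its peaks lay at percentile 99.4 in GAS, 91.7 in MB, 99.0 in MT, 95.2 in BMDM, 96.8 in PIM and 96.4 in ADIPO, and H3K27me3 was called in the stem cells alone. Ampd3, an AMP deaminase, St3gal1, a sialyltransferase, and Anxa5, which shares its promoter with 1810062G17Rik, also had no H3K27me3 in any differentiated list. At these last 3 H3K18la was called in mESC-2i too, at percentiles of 19.1 for Ampd3, 2.97 for St3gal1 and 0.532 for Anxa5. Runx1, the haematopoietic Runt factor, had peaks over its upstream start in 5 cell types, such as chr16:92822070-92827149 in BMDM (percentile 98.3). The ADIPO peak (chr16:92697301-92699589, percentile 63.2) lay over a downstream start, where the serum H3K27me3 peak was (chr16:92692561-92700891), and Runx1 carried H3K18la there in mESC-2i as well (percentile 25.2).

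H3K27me3 was called in all 7 lists at 470 members (26.7%, all genes 2.97%), and at 359 of 1330 protein-coding members (all protein-coding genes 5.24%). The rule fixes 1 of these lists, mESC-ser, for every member. Of all 9464 genes with H3K27me3 in mESC-ser, 16.9% had it in all 7 lists, and of bivalent genes with H3K18la 17.6%. Of the 470 members, 306 had H3K18la in none of the 8 lists. The highest H3K27me3 ranks were those of Lhx1, Onecut1, Prdm12, Pax2, Olig2 and Emx1, factors of neurons, kidney or liver, with mean percentiles from 99.3 to 99.7. At Lhx1 the H3K27me3 peak covered 23872 bp in mESC-ser and 17480 bp in mESC-2i, 23710 bp in GAS, 27941 bp in MB, 102675 bp in MT, 170508 bp in BMDM and 28781 bp in PIM. H3K4me3 was nonetheless called at Lhx1 in GAS (percentile 50.2) and PIM (82.7). Of the 38 listed regulators, 11 had H3K27me3 in all 7 lists and H3K18la in no differentiated one. Among them were Neurog2 of neurons, Gata4 and Hand2 of heart, Foxf1 of gut mesenchyme, T and Mesp1 of mesoderm, the morphogens Wnt3a and Shh, and Igf2.

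The gene classes are described here and were not tested. Of the 128 transcription factor members, 46 (35.9%) carried H3K18la in a differentiated cell type and 71 (55.5%) had H3K27me3 in all 7 lists, against 819 and 359 of all 1330 protein-coding members. Homeobox members outside the Hox clusters had 11 of 45 (24.4%) with H3K18la and bHLH members 9 of 25 (36.0%), with H3K27me3 throughout at 64.4% and 80.0%. Schwann cell and neural genes had 2 of 9 (22.2%) with H3K18la. Matrix genes had 18 of 25 (72.0%), of which 13 were in GAS and 13 in MT. The muscle, macrophage and fibroblast lists had it at each of their 8, 5 and 6 members. TGF-beta and BMP members had 9 of 13 (69.2%). Among all genes of these classes, members or not, H3K18la was found in a differentiated cell type at 30.4% of homeobox genes, 31.8% of Schwann cell and neural genes, 43.8% of bHLH genes, 63.6% of TGF-beta and BMP genes and 67.7% of matrix genes. Of the 4 cell cycle inhibitors that were members, Cdkn2b carried H3K18la in ADIPO, Cdkn2c in PIM and ADIPO, and Cdkn1c and Cdkn2a in no differentiated cell type.

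**Figure D3:**
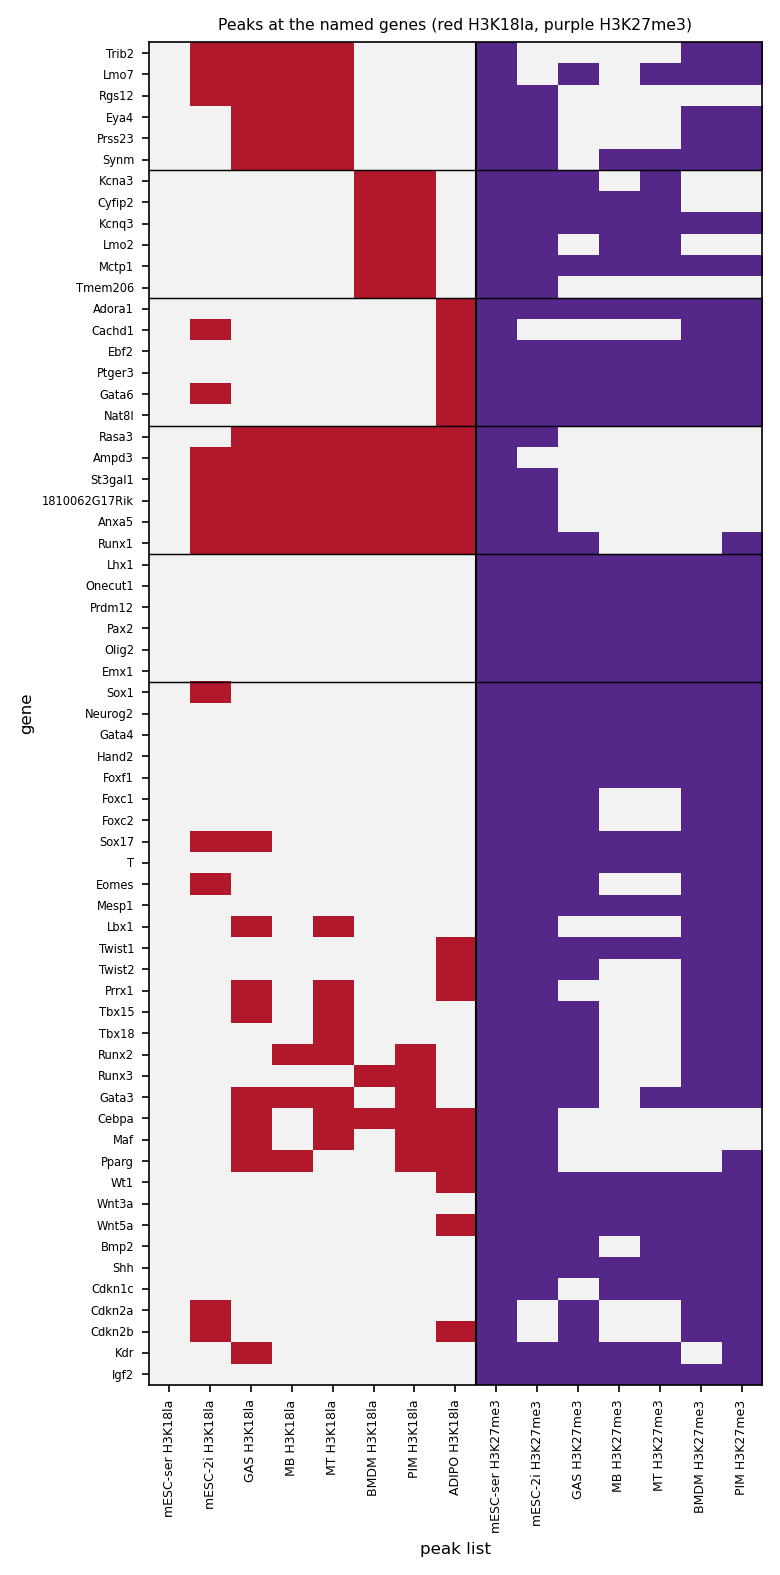
Peaks at the named genes. Rows are genes in the order muscle alone, macrophages alone, adipocytes alone, all 6, H3K27me3 throughout without H3K18la, and other members among the listed regulators (separated by lines); columns are the 8 H3K18la and 7 H3K27me3 lists; a filled cell is a called peak at a promoter, red for H3K18la and purple for H3K27me3. The mESC-ser columns are fixed by the rule, and the adipocyte rows show H3K18la beside H3K27me3 in the other cell types.

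Members with and without H3K18la were then compared for H3K27me3 in the same cell type, neither of which the rule used. H3K27me3 was present at 58.7% of members in GAS (all genes 17.7%), 40.6% in MB (8.44%), 47.6% in MT (15.2%), 61.9% in BMDM (12.9%) and 76.1% in PIM (16.9%). In GAS, 188 of 656 members with H3K18la had H3K27me3 (28.7%), against 844 of 1103 without (76.5%). The shares were 10.3% and 45.0% in MB, 19.8% and 68.3% in BMDM, and 43.0% and 90.2% in PIM. In MT, 105 of 583 members with H3K18la and 732 of 1176 without had H3K27me3. The share was lower with H3K18la in all 5 cell types, by -44.5 points on average ± 5.69 (SD, n = 5 cell types). The smallest p that 5 paired values allow is 0.0625 in an exact two-sided test, so none was run. Over all genes the same difference lay between -1.67 points (PIM) and -10.6 points (MT), from a lower H3K27me3 base. Bivalent genes with H3K18la in mESC-ser showed a like pattern in GAS and PIM, so it was not particular to members. Of those with H3K4me3 in GAS, 281 with H3K18la there had H3K27me3 and 742 did not. Without H3K18la in GAS, 414 had H3K27me3 and 180 did not. In PIM these counts were 419 and 390 with H3K18la, and 515 and 59 without. Of 302 members with H3K27me3 in no differentiated list, 280 carried H3K18la in at least 1 differentiated cell type. Among all members 58.8% did, and among all genes 42.9%. The share over all genes with H3K27me3 in no differentiated list was not computed.

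**Figure D4:**
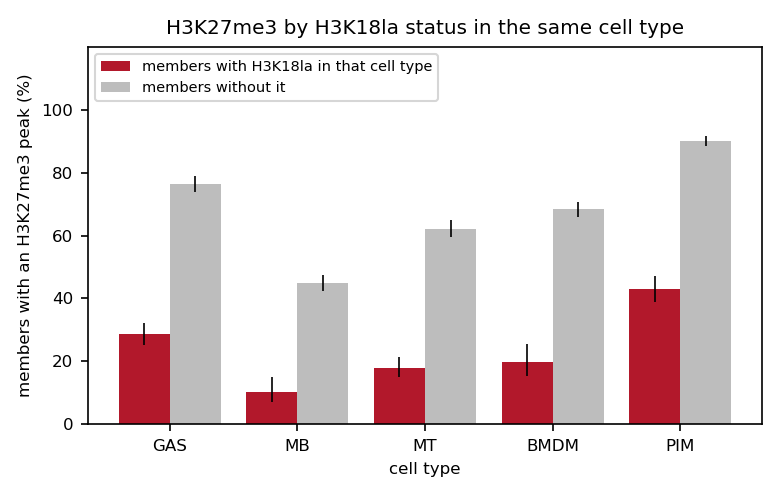
Percent of members with an H3K27me3 peak in 5 differentiated cell types, for members with (red) and without (grey) an H3K18la peak in that cell type. Lines are Wilson 95% intervals, which cover counting error only. In each cell type the red bar is below the grey one, at 10.3% to 43.0% against 45.0% to 90.2%.

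A promoter can be called for both marks. In GAS, 179 members (10.2%) carried H3K4me3, H3K27me3 and H3K18la, 467 (26.5%) carried H3K4me3 and H3K18la alone, and 636 (36.2%) remained bivalent without H3K18la. At bivalent genes with H3K18la in mESC-ser these shares were 15.0%, 39.7% and 22.1%. In PIM the members' numbers were 218 (12.4%), 300 (17.1%) and 575 (32.7%), against 22.4%, 20.9% and 27.5%. Shares of these combinations over all genes were not computed. H3K4me3 was retained at 86.4% of members in GAS (all genes 35.2%) and at 66.5% in PIM (all genes 33.0%). Where H3K18la and H3K27me3 were called at the same member, the peaks themselves overlapped at 99 members in GAS, 37 in MT, 7 in BMDM, 129 in PIM and 0 in MB. No background was computed for these overlaps. Lists of bulk material do not show whether such marks were on the same chromosomes.

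The H3K18la peaks at members often overlapped the stem cell peaks, which lie in the same windows by the rule. The peak overlapped the serum H3K4me3 peak at 90.9% of members with H3K18la in ADIPO, 85.8% in GAS, 82.7% in PIM, 81.8% in MT, 70.7% in BMDM and 70.5% in MB. At bivalent genes with H3K18la in mESC-ser these shares were 90.1%, 89.4%, 87.9%, 85.8%, 78.9% and 84.1%. The serum H3K27me3 peak was overlapped at 82.6% of members in GAS, 80.8% in MT, 80.2% in ADIPO, 74.1% in PIM, 69.2% in MB and 60.3% in BMDM, against 78.4%, 73.9%, 75.6%, 70.0%, 73.1% and 59.5%. At the rest, as at Eya4 in MB and MT, it lay over another start site or beside the stem cell peak. H3K27ac was present at 36.2% of members in GAS (all genes 30.0%), 20.2% in BMDM (18.6%), 35.1% in PIM (26.1%) and 40.0% in ADIPO (25.5%). Over protein-coding genes the direction turned in all 4, at 38.8% of members against 47.0% of all in GAS, 21.7% against 34.0% in BMDM, 37.5% against 48.8% in PIM and 41.5% against 46.1% in ADIPO. Of the members with H3K18la, 92.5% in ADIPO, 89.7% in PIM, 87.1% in BMDM and 73.6% in GAS also had H3K27ac. Over all genes with H3K18la the shares were 84.8%, 82.7%, 82.5% and 80.3%. In GAS the H3K18la peaks had a median width of 2497 bp and lay at a median percentile of 58.3 at members, with 2488 bp and 57.7 at all genes, 3129 bp and 69.8 at bivalent genes with H3K18la in mESC-ser, and 1898 bp and 44.8 at H3K4me3-only genes. Members lay between the last 2 groups in median width and percentile in all 6 cell types.

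The bivalent genes with H3K18la in mESC-ser are the nearest comparison, since they share the other marks of the rule. Members carried H3K18la less often in each of the 6 cell types. In GAS it was 37.3% against 55.6%, in MB 12.7% against 23.3%, in MT 33.1% against 49.3%, in BMDM 13.2% against 21.3%, in PIM 29.9% against 44.2% and in ADIPO 31.8% against 46.0%. The mean difference was -13.6 points ± 3.72 (SD, n = 6 cell types), and -6.46 points ± 1.42 with H3K18la lists of equal extent. A two-sided exact permutation test, flipping the sign of each cell type's difference, gave p = 0.0312, the smallest that 6 cell types allow, and 0.0938 after adjustment over 3 tests, which does not pass 0.05. H3K27me3 was more frequent at members in all 5 differentiated lists, at 58.7% against 47.8% in GAS, 40.6% against 32.8% in MB, 47.6% against 35.4% in MT, 61.9% against 57.4% in BMDM and 76.1% against 72.7% in PIM, a mean of 7.76 points ± 3.86 (SD, n = 5 cell types, not tested).

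Against the 3986 H3K4me3-only genes, the differences were less even. Members had H3K18la at 37.3% against 43.5% in GAS, 33.1% against 45.1% in MT, 13.2% against 24.8% in BMDM, 29.9% against 56.6% in PIM and 31.8% against 75.0% in ADIPO, but at 12.7% against 6.57% in MB. The mean was -15.6 points ± 17.2 (SD, n = 6 cell types), lower in 5 of 6, with p = 0.0625 in the exact permutation test and 0.0938 adjusted. It was -0.197 points with H3K18la lists of equal extent and -10.1 points without ADIPO. When the 5000 peaks with the largest total signal per list were used, the mean was 1.92 points.

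**Figure D5:**
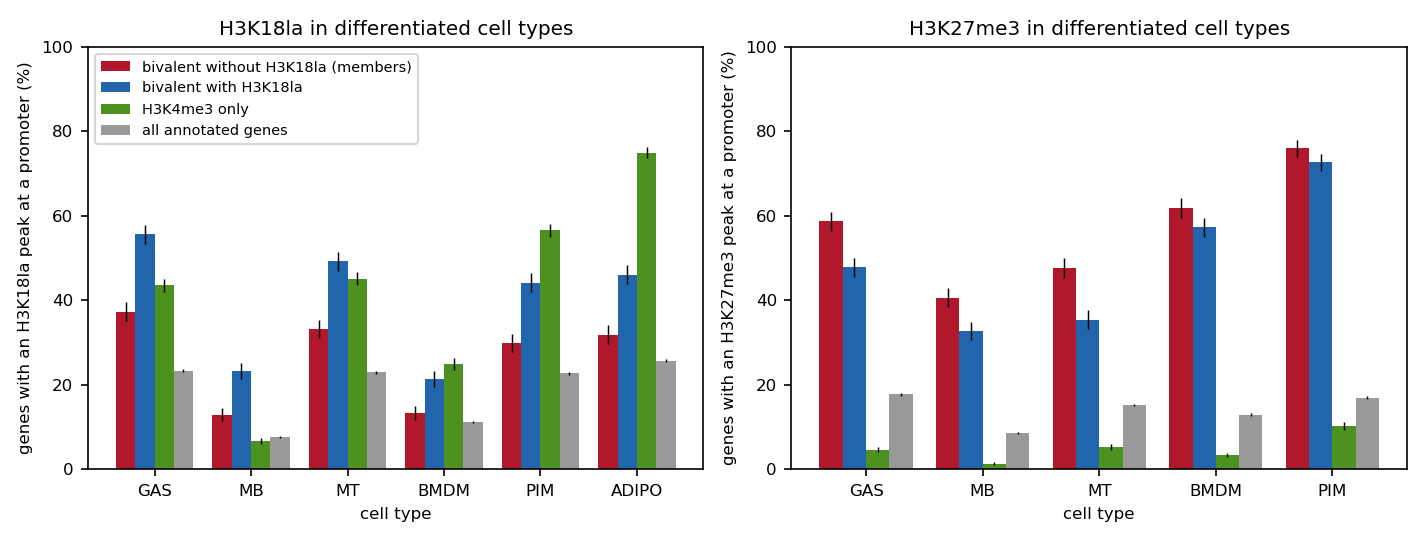
Percent of genes with an H3K18la peak (left, 6 differentiated cell types) or an H3K27me3 peak (right, 5 cell types) at a promoter, for members, bivalent genes with H3K18la in mESC-ser, H3K4me3-only genes (neither H3K27me3 nor H3K18la in mESC-ser) and all annotated genes. Bars start at 0 and lines are Wilson 95% intervals. Members lie below bivalent genes with H3K18la in every H3K18la group and above them in every H3K27me3 group.

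The labels were checked on defining genes. Pou5f1, Nanog and Sox2 carried H3K18la in both stem cell lists and in none of the others. All 4 muscle genes carried it in MT, 3 in GAS, where Myh1 had none, and 2 in MB, where Myog and Ckm had none. Myh1 carried it in MB. Csf1r, Adgre1 and Spi1 carried it in BMDM and PIM, and Adipoq, Plin1 and Pparg in ADIPO. Adipoq carried it in BMDM and PIM as well. Markers of other cells were called too. In ADIPO, 3 of 4 fibroblast and 3 of 4 Schwann cell markers carried H3K18la, and 0 of 5 endothelial markers. In MT these were 3 of 4, 2 of 4 and 1 of 5.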

How the data were processed

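Peak lists of H3K18la (8 cell types), H3K27me3 (7), H3K27ac (5) and H3K4me3 (4) were used. Per the submitters' processing notes and the study's methods, reads were trimmed with Trim Galore 0.6.6, aligned to mm10 with Bowtie2 2.4.4, handled with SAMtools 1.13 and bedtools 2.30, and replicates were merged before SEACR 1.3 kept the top 1% of regions in stringent mode. The deposited signal column used here holds coverage summed over each peak, as the authors wrote it and called without a control track. Since lists are not scaled to a common depth, signal was ranked within a list only. The depth of each sample is not analysed here, and a list from fewer reads can miss peaks. The stem cell lists without a medium in their name were read as mESC-ser, as separate mESC-2i lists exist.

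Promoters came from GENCODE vM21 on chromosomes 1 to 19 and X (139486 transcripts), and 229 peaks on Y and 34 on mitochondrial DNA were not used. Overlaps were computed with Python 3.11.15, numpy 2.4.6, pandas 2.3.3 and scipy 1.17.1 and checked against bedtools on simulated intervals, and the exact tests were tested on simulated data. Figures used matplotlib 3.10.9. No peak ran past a chromosome end of GRCm38. Members, gene classes and lists were chosen with earlier results of these data known. Genes named by rank were the 6 first protein-coding members per pattern, by mean percentile of total signal in the lists that define it, then the members of a list of 80 regulators, and 3 genes on each side of each limit of the rule. Of the listed regulators, 1 is not reported here. Other genes were named as examples of their list or class after their values were seen. Alternatives were narrower promoters, coding transcripts, a larger overlap, fewer or equally extensive peaks, genes with a single promoter region, overlapping stem cell peaks, both stem cell media and leaving out each cell type.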

Additional observations from a re-analysis of the deposited data

Results flagged for a closer look

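Peaks over Y-linked genes, outside the chromosomes analysed, were found in lists of mice that the methods describe as female. Of 4 Y-linked genes examined (Ddx3y, Eif2s3y, Kdm5d and Uty), 2 lay under peaks of the ADIPO H3K18la list and 2 under peaks of its H3K27ac list, from fat that is named epididymal. In PIM, 3 lay under H3K18la peaks, 3 under H3K27ac peaks and 4 under H3K4me3 peaks. In BMDM, 3 lay under H3K18la peaks and 0 under H3K27ac or H3K27me3 peaks. GAS, MB, MT and the stem cells had 0 in each of their lists, and PIM had 0 in its H3K27me3 list. No comparison above used these peaks, and the reason was not tested.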

How the results depend on the processing

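Of 96 recomputed values, 2 changed sign, and 9 counts or untested values moved by more than 1.5 times or than the spread between cell types. Tested differences were labelled by sign and by passing 0.05 only, so changes in their size are not in this tally. No tested difference passed an adjusted 0.05 under any setting, but the sign-flip tests cannot go below 0.0312 with 6 cell types or 0.0625 with 5, so those p-values say nothing about stability. The lowest adjusted p was 0.05, at the threshold and not below it, for the comparison with bivalent genes with H3K18la and for lineage structure on the 5000 strongest peaks per list. With those peaks there were 837 members, 248 of them with H3K18la in a differentiated cell type, a reversed difference from H3K4me3-only genes of 1.92 points, and an H3K27me3 difference of -38.5 points between members with and without H3K18la. Genes with a single merged promoter region gave 1002 members, 490 with H3K18la and a difference of -54.9 points. Bivalency in both media with H3K18la in neither gave 1098 and 566, and -20.0 points against genes bivalent with H3K18la in both media. With H3K18la lists cut to equal bases, 392 members carried H3K18la and the differences were -6.46 points from bivalent genes with H3K18la and -0.197 points from H3K4me3-only genes. Leaving out each cell type gave 944 to 1033 members with H3K18la, -14.7 to -12.7 points against bivalent genes with H3K18la, -19.9 to -10.1 points against H3K4me3-only genes and -0.00651 (without BMDM, reversed) to 0.0993 for lineage structure. The H3K27me3 differences were then 6.65 to 8.86 and -46.9 to -43.5 points, with no value without ADIPO, which has no such list. Protein-coding genes alone, a choice made after seeing the data, gave 1330 members and -13.1 points. The causes were not tested. No paired analysis was possible because replicates were merged into 1 list before peaks were called, so the lists carry no replicate numbers. An absent peak shows that none was called at this depth.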
